A study of Homo sapiens with 4 samples.

Results

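PHOX2A, HAND1, HAND2, GATA2, GATA3, ISL1, TBX2, LMO1 and KLF7 are transcription factors and cofactors of the adrenergic core regulatory circuitry of neuroblastoma. These 9 genes were chosen by name, from their known place in that circuitry, and with earlier results of these data known. They were taken out of the 60612 genes in the count table, and all 9 passed the filter on low counts. They were followed in RNA sequencing (RNAseq) libraries of IMR-32, an established MYCN-amplified human neuroblastoma cell line, to ask how the circuitry responded to loss of NeuroD1. Cells were stably transduced with a short hairpin RNA, and 1 µg/mL doxycycline was given for 48 h to induce it. The shControl group (2 libraries, genotype given as WT) carried a control hairpin, and the shNeuroD1 group (2 libraries, genotype given as NeuroD1 knockdown) carried a hairpin against NeuroD1. Titles number the libraries 1 and 2 in each group, and these were read as replicate numbers. The study numbers its different hairpins against NeuroD1 in the same way, and the labels do not say which was sequenced, but the column headings of its own supplementary gene table place both shNeuroD1 libraries under a single hairpin. Whether libraries of a group came from separate cultures is not given in the sources used here, so p-values measure only the spread between these libraries.

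Neuroblastoma arises from sympathoadrenal precursors, and its adrenergic state is held by a small set of lineage transcription factors. These factors are known to bind the enhancers of their own genes and of each other, so that each helps to keep the others expressed. NeuroD1 is a basic helix-loop-helix factor that binds E-boxes (CANNTG) as a dimer with E proteins, the same dimer partners that HAND1 and HAND2 use.

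The hairpin lowered its target. NEUROD1 was read 6174 and 6582 times in the shControl libraries and 969 and 886 times in the shNeuroD1 libraries, and its level in shNeuroD1 was 14.6% of that in shControl (log2 fold change -2.77, SE 0.05, adjusted p = 8.59e-29). Here and below, fold changes are shNeuroD1 minus shControl from edgeR's quasi-likelihood test, and p-values are adjusted by Benjamini-Hochberg over the 17537 genes tested. Libraries held between 14665210 and 16482463 counts, and 3 counts corresponded to about 0.2 CPM (TMM-scaled counts relative to library size). The mitochondrial share of counts was 4.37% and 4.59% in the controls, against 5.39% and 5.51% with knockdown. The label of the cells was checked against 12 neuroblast markers. All 12 were detected, with abundant MYCN, CHGA and ELAVL4, but the catecholamine enzymes TH (10, 20, 88 and 79 counts, in the order shControl 1 and 2, shNeuroD1 1 and 2) and DBH (23, 24, 12 and 11 counts) were low, TH more so in shControl than in shNeuroD1. In the fit, 4939 genes were lower and 4698 higher at adjusted p under 0.05. With scaling by library size alone in place of the trimmed mean of M values, the median of all genes shifted to 0.12 on the log2 scale and the split became 3639 lower and 6114 higher.

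Of the 9 members, 3 fell (HAND2, ISL1 and KLF7), 3 rose (GATA3, TBX2 and LMO1) and 3 did not pass the test (PHOX2A, HAND1 and GATA2). Among all genes tested, 28.2% fell and 26.8% rose, so the members' shares in both directions were near the background. TBX2 and LMO1 also passed a log2 fold change of 1, as 8.79% of all genes did in that direction. The libraries of the groups did not overlap in CPM for 6 members, the same 6 that passed the test, against 76.1% of all genes. The median log2 fold change of the members was -0.01, beside 0.01 for all genes.

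**Figure D1:**
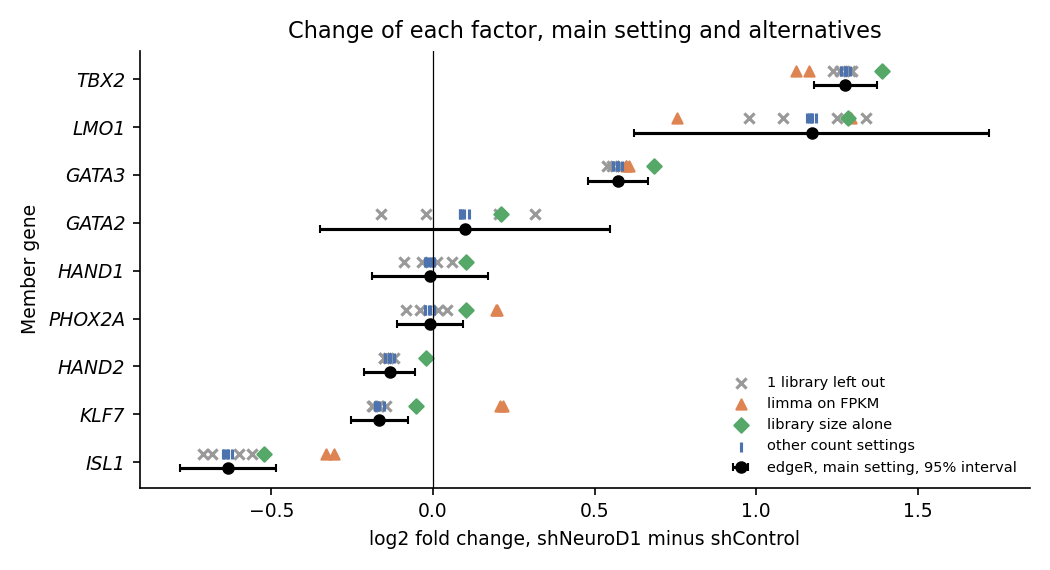
Log2 fold change (shNeuroD1 minus shControl) of each member, with the edgeR values and 95% intervals in black and the same gene under each alternative in the other symbols. TBX2, LMO1 and GATA3 lay above 0 and ISL1 below 0 in all of them, while KLF7 lay above 0 in the fits on FPKM (0.21 and 0.22).

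The regions before the transcript starts of PHOX2A, GATA3, ISL1 and KLF7 are printed here because for these members a start in the authors' assembled transcripts coincided exactly with a RefSeq start, so that the bases before it could be fixed. Each is the 250 bases before the start, 5′ to 3′ on the strand of the gene, from RefSeq on GRCh38.p14. Capitals mark E-boxes by the general letters CANNTG, whichever factor may bind them. The positions are chr11:72244177-72244426 on the minus strand for PHOX2A, chr10:8054438-8054687 on the plus strand for GATA3, chr5:51383198-51383447 on the plus strand for ISL1 and chr2:207134138-207134387 on the minus strand for KLF7.
PHOX2A: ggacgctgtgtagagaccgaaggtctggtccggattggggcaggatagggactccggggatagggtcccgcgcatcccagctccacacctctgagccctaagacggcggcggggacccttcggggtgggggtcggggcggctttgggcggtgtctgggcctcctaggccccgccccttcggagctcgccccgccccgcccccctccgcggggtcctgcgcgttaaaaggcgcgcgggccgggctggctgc
GATA3: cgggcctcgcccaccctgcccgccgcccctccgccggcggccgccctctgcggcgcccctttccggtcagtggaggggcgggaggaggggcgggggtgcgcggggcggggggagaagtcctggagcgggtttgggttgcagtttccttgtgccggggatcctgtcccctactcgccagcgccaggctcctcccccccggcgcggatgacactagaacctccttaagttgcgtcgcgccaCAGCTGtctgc
ISL1: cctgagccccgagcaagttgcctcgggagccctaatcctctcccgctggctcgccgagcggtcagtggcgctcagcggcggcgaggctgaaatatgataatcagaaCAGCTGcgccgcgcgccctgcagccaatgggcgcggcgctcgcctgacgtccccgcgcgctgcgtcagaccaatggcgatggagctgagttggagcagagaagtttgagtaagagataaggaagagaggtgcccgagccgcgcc
KLF7: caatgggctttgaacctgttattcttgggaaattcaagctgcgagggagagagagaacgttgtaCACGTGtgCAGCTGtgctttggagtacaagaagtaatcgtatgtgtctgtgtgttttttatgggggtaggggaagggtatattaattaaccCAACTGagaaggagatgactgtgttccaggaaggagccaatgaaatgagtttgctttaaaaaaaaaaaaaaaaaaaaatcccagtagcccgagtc
PHOX2A, whose level did not pass the test, had no E-box in this stretch. The window of 300 bases at the same start, which takes in the 50 bases after it, held 1. GATA3, which rose, and ISL1, which fell, each had 1 E-box with the same letters, CAGCTG. In the KLF7 stretch the E-box nearest the 5′ end was CACGTG, the next had the same letters as those of GATA3 and ISL1, and the last was CAACTG. A second listed KLF7 start, at position 207165948, also coincided exactly with a RefSeq start, and its window of 300 bases held no E-box. Over the RefSeq windows of 300 bases (250 before to 50 after a start), 17 windows were found for 8 of the 9 members, and TBX2 had no entry. CANNTG stood in 8 of these 17 windows, from 6 members, against 68.7% of all 35116 windows. CAGCTG stood in 4 of the members' windows (17.9% of all windows). CAGATG, or on the opposite strand CATCTG, stood in 1, a KLF7 window (14.7% of all). The GATA motif was searched as AGATAA and its variant ending in G, AGATAG, and with T as its first letter as TGATAA and its variant ending in G, TGATAG. It stood in 2, of HAND2 and ISL1 (25.0% of all). All motifs were sought on both strands, and all but the GATA motif are forms of CANNTG, so that they overlap with it. A match is only a match of letters.

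The HAND factors are basic helix-loop-helix proteins of sympathetic development. HAND2 (chr4:173524969-173530229, minus strand, GRCh38 with GENCODE 29 for this and the other genes) was the most abundant member. It was read 11656 and 12452 times in shControl and 11030 and 10812 times in shNeuroD1, or 787 ± 4.70 CPM against 718 ± 10.6 CPM (mean ± SD, n = 2 in each group for all such values). Both shNeuroD1 libraries lay below both shControl libraries, and the fall was small (log2 fold change -0.13, SE 0.04, adjusted p = 0.00379). It was not called with scaling by library size alone (-0.02, adjusted p = 0.646) or without shNeuroD1 replicate 2 (-0.12, adjusted p = 0.121). HAND1 (chr5:154474972-154478264, minus strand), its paralog, was read 368, 440, 405 and 393 times in the same order of libraries. The shNeuroD1 values lay inside the range of shControl (log2 fold change -0.01, 95% interval -0.19 to 0.17, adjusted p = 0.944). Per kb of exon, HAND2 exceeded HAND1 by 15.3 and 13.7 times in shControl and 13.1 and 13.3 times in shNeuroD1.

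PHOX2A (chr11:72239077-72245664, minus strand) is a paired homeodomain factor that drives genes of noradrenaline synthesis. It was read 2178 and 2151 times in shControl and 2178 and 2100 times in shNeuroD1. The CPM of the groups overlapped, and the change was close to 0 (log2 fold change -0.01, 95% interval -0.11 to 0.09, adjusted p = 0.882). Almost all of its listed start signal came from the start whose upstream bases are printed above, at 56.7 and 47.1 FPKM in shControl and 55.8 and 60.8 FPKM in shNeuroD1 (fragments scaled for transcript length and for library size).

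The GATA members are zinc finger factors of the sympathetic lineage. GATA3 (chr10:8045378-8075203, plus strand) was read 2114 and 2349 times in shControl and 3326 and 3266 times in shNeuroD1. Both shNeuroD1 libraries were higher than both shControl libraries, with 217 ± 2.94 CPM against 146 ± 3.18 CPM, a rise of 1.49-fold (log2 fold change 0.57, SE 0.05, adjusted p = 1.91e-12). GATA2 (chr3:128479427-128493185, minus strand) was near the bottom of the group with 63, 58, 75 and 54 counts. Its libraries overlapped between groups, and its wide interval (log2 fold change 0.10, 95% interval -0.35 to 0.55, adjusted p = 0.728) covered changes in both directions. The ratio of GATA3 to GATA2 per kb of exon was 43.5 and 52.6 in the controls and 57.5 and 78.5 with knockdown, with no overlap. This ratio takes in the rise of GATA3 given above, and its denominator rests on the few GATA2 counts.

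ISL1 (chr5:51383391-51394738, plus strand), a LIM homeodomain factor of sympathetic neurons, showed the largest fall of the 9. Its counts were 764 and 872 in shControl and 496 and 552 in shNeuroD1. Both knockdown libraries lay well below both controls, with 34.4 ± 2.58 CPM against 53.4 ± 2.18 CPM, or 64.5% of the control level (log2 fold change -0.63, SE 0.07, adjusted p = 6.31e-09). In the FPKM of transcript starts, ISL1 summed to 13.1 and 13.3 in shControl and 9.74 and 11.3 in shNeuroD1, a difference that limma did not call (log2(FPKM + 1) difference -0.31, adjusted p = 0.219).

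TBX2 (chr17:61399896-61409466, plus strand), a T-box factor known chiefly as a transcriptional repressor that promotes cell division, had the largest fitted log2 fold change of the 9, although the interval of LMO1 covered its value and LMO1 was higher in 3 alternatives. It was read 1503 and 1554 times in shControl and 3642 and 3723 times in shNeuroD1. The groups were far apart relative to their spread, with 242 ± 3.60 CPM against 99.9 ± 2.91 CPM, a 2.42-fold rise (log2 fold change 1.28, SE 0.05, adjusted p = 6.68e-21) that stood at the 93.9th percentile of all genes tested. TBX2 had 1 listed transcript start, at 18.0 and 17.3 FPKM in shControl and 40.1 and 39.2 FPKM in shNeuroD1, and was the only member called by limma on the FPKM (log2(FPKM + 1) difference 1.12, adjusted p = 0.0262; 6 of the 9 members entered that fit). GATA3 (0.60, adjusted p = 0.0778) and LMO1 (0.76, adjusted p = 0.0999) were not called there.

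LMO1 (chr11:8224304-8268716, minus strand), a LIM-only protein that bridges DNA-binding factors without binding DNA itself and acts as a neuroblastoma oncogene, was read only 24 and 29 times in shControl and 52 and 67 times in shNeuroD1. Both shNeuroD1 libraries were above both shControl libraries, with 3.91 ± 0.69 CPM against 1.73 ± 0.14 CPM, or 2.26-fold (log2 fold change 1.17, SE 0.27, adjusted p = 0.000428). With so few counts its 95% interval was wide, 0.62 to 1.72, and the call was lost without shControl replicate 1 (log2 fold change 1.08, adjusted p = 0.0632) or without shControl replicate 2 (1.25, adjusted p = 0.0514). KLF7 (chr2:207074137-207167267, minus strand), a Krüppel-like zinc finger factor of peripheral neurons, was read 4019 and 4391 times in shControl and 3776 and 3678 times in shNeuroD1. It fell to 89.2% of control (log2 fold change -0.17, SE 0.04, adjusted p = 0.00145), and as for HAND2 the call was lost with library size alone (-0.05, adjusted p = 0.299) and without shNeuroD1 replicate 2 (-0.15, adjusted p = 0.0752).

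Levels of different genes were compared as CPM per kb of exon. The mean over the 4 libraries ran from 209 for HAND2 through 79.1 for PHOX2A, 52.7 for GATA3, 28.4 for TBX2, 28.0 for KLF7, 15.2 for ISL1 and 15.1 for HAND1 to 1.67 for LMO1 and 0.92 for GATA2. The ranges over the 4 libraries overlapped for TBX2 and KLF7, for ISL1 and HAND1, and for LMO1 and GATA2, where the range takes in both groups and so the change between them. Within each group the libraries of these pairs did not overlap, and LMO1 lay above GATA2 in each of the 4 libraries. The middle of the order changed between groups. In shControl, TBX2 (16.9 and 16.2) lay below ISL1 (18.0 and 19.0), whereas in shNeuroD1 TBX2 (39.7 and 40.6) lay above KLF7 (26.8 and 26.1) and ISL1 (11.3 and 12.6) lay below HAND1 (15.3 and 14.8). TBX2 thus went from 0.94 and 0.85 times the level of ISL1 to 3.51 and 3.22 times.

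**Figure D2:**
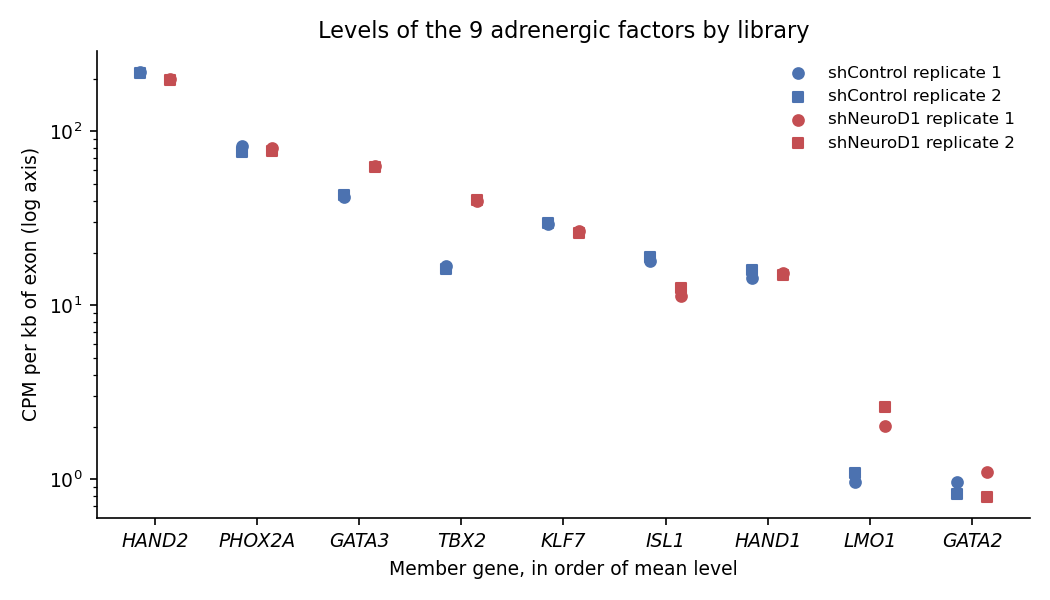
CPM per kb of exon (log axis) for each member in each of the 4 libraries, with blue for shControl, red for shNeuroD1, circles for replicate 1 and squares for replicate 2. TBX2, GATA3 and LMO1 were higher and ISL1 was lower in both red libraries, and LMO1 and GATA2 lay well below the other 7 members.

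The summed level of the 9 members was 425 and 420 CPM per kb in the controls, slightly below the 441 and 434 of the knockdown libraries, while its make-up shifted. HAND2 took 51.8% of the sum in shControl and 45.5% in shNeuroD1 (means of 2 libraries). TBX2 went from 3.92% to 9.17% and GATA3 from 10.04% to 14.4%. ISL1 went from 4.38% to 2.73%, and PHOX2A took 18.8% and 18.0%. These shares sum to a fixed total, so that a rise of one lowers the others.

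**Figure D3:**
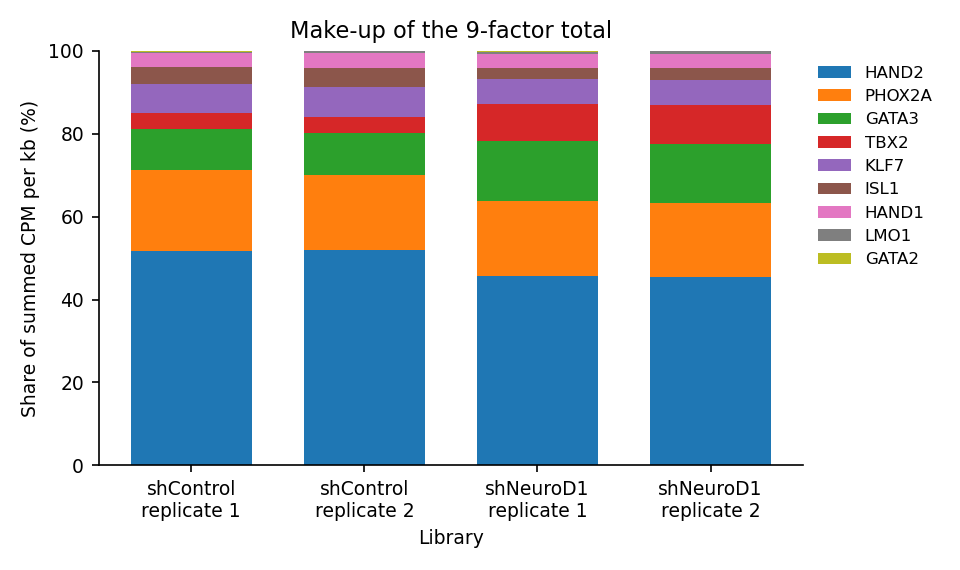
Stacked bars give the share (%) of the summed CPM per kb of exon taken by each member in each library. HAND2 shrank from 51.8% to 45.5% while the TBX2 band widened from 3.92% to 9.17%, alike in both libraries of a group.

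Several members lie against a transcript on the opposite strand, and 4 of the 6 tested rose, where 26.8% of all genes tested did. So few transcripts allow no statement on such neighbours in general. TBX2-AS1 (chr17:61393456-61411555, minus strand), which spans TBX2, was read 147 and 158 times in shControl and 639 and 631 times in shNeuroD1. It rose by a log2 fold change of 2.07 (SE 0.10, adjusted p = 2.54e-18), the same direction as TBX2. GATA3-AS1 (chr10:8050450-8053484, minus strand) also rose with its partner, from 184 and 180 counts to 308 and 337 (0.83, SE 0.11, adjusted p = 1.76e-07).

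At HAND2 and ISL1 the opposite-strand transcript rose where the member fell. HAND2-AS1 (chr4:173527270-173659696, plus strand) was read 10881 and 11286 times in shControl and 18986 and 19670 times in shNeuroD1 (log2 fold change 0.81, SE 0.04, adjusted p = 7.14e-18). ISL1-DT (chr5:51372736-51383332, minus strand) starts 59 bases from ISL1, within the ISL1 stretch printed above, and went from 287 and 255 counts to 400 and 306 (0.39, SE 0.12, adjusted p = 0.00499). HAND2-AS1 shares 867 exon bases with HAND2, and whether counting used strand is not given in the sources used here. Without strand, reads over those bases can not be told apart between the 2 genes, so the small fall of HAND2 is uncertain. TBX2-AS1, GATA3-AS1 and ISL1-DT share no exon base with their partners.

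The remaining neighbours did not pass the test or were not tested. GATA2-AS1 had 2, 8, 12 and 11 counts (log2 fold change 1.19, adjusted p = 0.0888). KLF7-IT1, within an intron of KLF7, had 20, 37, 9 and 22 (-0.86, adjusted p = 0.0723). INPPL1, which overlaps the end of PHOX2A by 29 exon bases, had a log2 fold change close to 0 (-0.03, adjusted p = 0.669). AL390294.1 near GATA3, AC005746.2 near TBX2, and MIR2355 and MIR7845 near KLF7 had at most 8 counts in a library and were not tested.

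**Figure D4:**
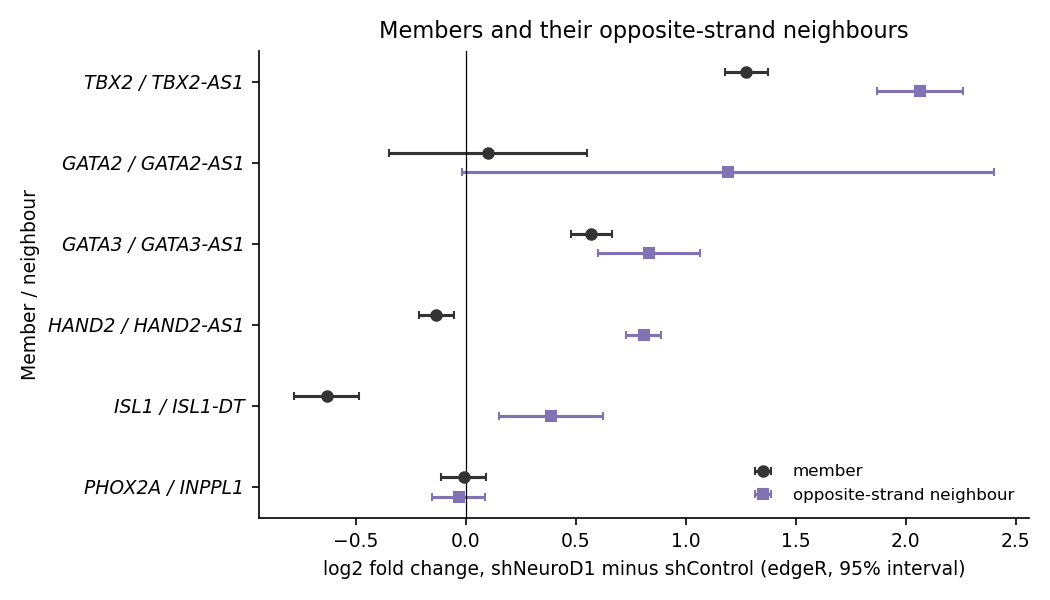
Log2 fold changes (shNeuroD1 minus shControl) with 95% intervals for 6 members (black circles) and an opposite-strand neighbour of each (purple squares). TBX2-AS1, GATA3-AS1, HAND2-AS1 and ISL1-DT lay above 0, the last pair opposite in direction to HAND2 and ISL1.

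The authors' tables of assembled transcripts gave FPKM for the starts of 7 members, and none for HAND1 or HAND2. A start that a table does not list is not a measured 0. GATA3 summed to 35.2 and 36.2 FPKM in shControl and 49.99 and 59.4 in shNeuroD1. Its main start, whose upstream bases are printed above, went from 18.7 and 20.1 to 29.9 and 30.5, with no overlap between groups. The start before it, at position 8053604, varied between replicates, with 13.2 and 9.998 in shControl and 6.48 and 21.97 in shNeuroD1. A start at position 8051541, also the annotated start of AL390294.1, was not listed in shControl replicate 1 and had 0.26 FPKM in shControl replicate 2, 7.04 in shNeuroD1 replicate 1 and 2.52 in shNeuroD1 replicate 2.

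At KLF7 the assembled start that held most FPKM differed between replicates and not between groups. Whether this reflects the starts used by the cells or the assembly in each library was not tested. The start at position 207134137 held 76.2% and 79.3% of the KLF7 start FPKM in replicate 1 of shControl and shNeuroD1, and 13.0% and 16.1% in replicate 2. The start at position 207165948 held 21.7% and 18.4% in replicate 1 and 74.5% and 79.7% in replicate 2. The summed FPKM of the controls (25.2 and 15.7) spanned that of the knockdown (24.6 and 21.7), and its fitted difference was of the opposite sign to that of the counts (0.21 on log2(FPKM + 1), adjusted p = 0.64). LMO1 starts summed to 0.70 and 0.72 FPKM in shControl and 1.78 and 2.00 in shNeuroD1.

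**Figure D5:**
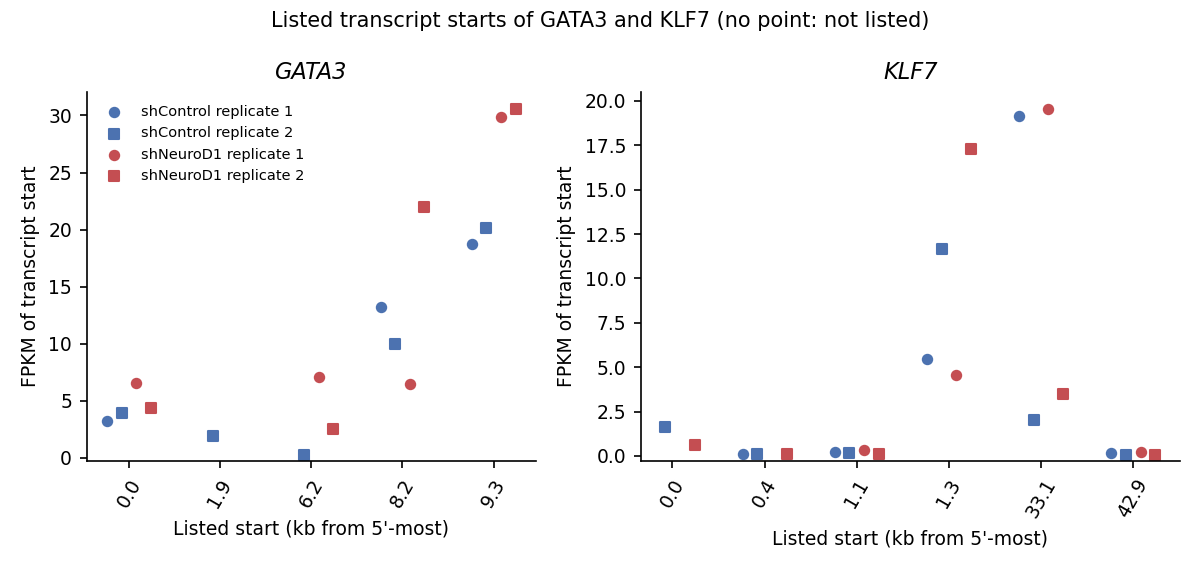
FPKM of each listed transcript start of GATA3 (left) and KLF7 (right), ordered by distance in kb from the 5′-most listed start, with blue for shControl, red for shNeuroD1, circles for replicate 1 and squares for replicate 2. At the last GATA3 start both red points (29.9 and 30.5) lie above both blue points, whereas at KLF7 circles and squares separate and colours do not.

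Of 18 other adrenergic factors, 17 were tested, and 8 fell, 6 rose and 3 did not pass (median log2 fold change -0.08). Beside these counts and those of the lists below, 28.2% of all genes tested fell and 26.8% rose. HEY1, a Notch target repressor, rose (43, 49, 171 and 161 counts, log2 fold change 1.86, adjusted p = 1.53e-10). INSM1, a zinc finger factor of neuroendocrine differentiation, fell (2848, 2798, 775 and 831 counts, -1.81, adjusted p = 1.02e-22), and so did the chromatin organiser SATB1 (4692, 5295, 1461 and 1416 counts, -1.79, adjusted p = 1.3e-24). The log2 fold changes of these 3 were larger in size than that of any of the 9 members. TFAP2B, with at most 7 counts, was not tested. MYCN, named here after its values were seen because the line is MYCN-amplified, had 29840, 30880, 29956 and 30146 counts (-0.01, adjusted p = 0.886).

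Among 14 tested partner and cofactor genes, 6 fell, 2 rose and 6 did not pass (median -0.02). The largest falls were those of ZFPM2, a cofactor of GATA factors (265, 312, 61 and 66 counts, log2 fold change -2.17, adjusted p = 3.67e-14), and of the E proteins TCF12 (-1.17, adjusted p = 3.75e-21) and TCF3 (-0.90, adjusted p = 4.95e-17), the dimer partners of HAND1, HAND2 and NeuroD1. TCF12 was read 7044 and 7805 times in shControl and 3238 and 3317 times in shNeuroD1. TAL1 and LYL1, partners of LMO proteins in blood cells, had at most 2 counts in a library.

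Of 14 paralogs of the members, 8 were tested, with 4 lower, 2 higher and 2 not past the test (median -0.47). TBX3, the closest relative of TBX2, rose from 449 and 513 counts to 762 and 818 (log2 fold change 0.72, adjusted p = 4.26e-10), while TBX4 fell from 381 and 395 to 131 and 125 (-1.59, adjusted p = 1.91e-13). LMO3 fell (41, 43, 26 and 21 counts, -0.83, adjusted p = 0.0198) where LMO1 rose. GATA5, GATA6 and TBX5 had no read in any library, and GATA1, GATA4 and LMO2 had at most 3, so GATA3 and GATA2 were the GATA genes read above the floor. TBX3 and LMO3 stand in both this list and that of the other adrenergic factors.

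Noradrenergic effector genes, many of them known targets of these factors, were more often higher than lower: of 14 tested, 8 rose, 3 fell and 3 did not pass (median 0.53, beside 0.01 for all genes). TH, the first enzyme of catecholamine synthesis, rose from its low level (log2 fold change 2.48, adjusted p = 8.34e-09). The receptor gene RET rose from 40 and 40 counts to 186 and 187 (2.23, adjusted p = 2.29e-12), and GAP43, a growth cone protein, from 289 and 307 to 932 and 885 (1.62, adjusted p = 5.05e-18). The 3 that fell, named after their values were seen, were SLC6A2, the noradrenaline transporter (1062, 1067, 551 and 658 counts, -0.81, adjusted p = 2.36e-11), DBH, which makes noradrenaline from dopamine (-1.01, adjusted p = 0.0342), and the nicotinic receptor subunit CHRNB4 (-0.14, adjusted p = 0.012). TH and DBH, enzymes of the same synthesis, thus changed in opposite directions. The tested genes of catecholamine synthesis and transport had no common direction. TH and DDC rose, DBH and SLC6A2 fell, and GCH1, SLC18A2 and PNMT did not pass the test. The other listed genes that rose were RET, CHGA, CHGB, PRPH, CHRNA3 and GAP43. SLC18A1, a vesicular monoamine transporter, had no read. The neuroblast markers, which share 8 genes with this list, comprised 9 higher, 2 lower and 1 not past the test (median 0.62).

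Markers of the other cell states moved beside these changes. Of 16 mesenchymal markers, 9 were tested, with 6 lower and 3 higher (median -0.53). Their summed CPM went from 496 and 497 to 732 and 724. VIM, named after its values were seen, went from 243.3 and 239.1 to 549.5 and 544.0 CPM (3586, 3796, 8359 and 8283 counts). VIM rose by more than the sum did, so the other listed markers summed to fewer CPM in shNeuroD1 than in shControl. PRRX1 and TWIST2 were at 0 in every library. TBX18 fell from 41 and 45 counts to 4 and 7 (log2 fold change -2.93, adjusted p = 5.38e-07) and YAP1 from 177 and 220 to 82 and 57 (-1.50, adjusted p = 3.39e-09), while COL3A1 went from 0 and 2 counts to 15 and 18. Of the 4 Schwann lineage markers reported here, 2 were tested, and S100B was higher (23, 3, 25 and 31 counts, 1.10, adjusted p = 0.0476). SOX10 did not pass the test, ERBB3 had at most 8 counts in a library, and FOXD3 was at 0. No sum over the Schwann markers is given, since it would not cover the whole list. The part of these markers in the changes of the 9 members was not tested, and fewer cells of a type and less RNA per cell cannot be told apart in bulk libraries.

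The genes whose pattern was most like that of the 2 extreme members were sought by the Euclidean distance of gene-centred log2 CPM over the 4 libraries, among the 10560 tested genes that averaged 10 CPM or more. Nearest to ISL1 were MMP2 (distance 0.02), RCC1 (0.02) and NRIP1 (0.03), with log2 fold changes of -0.64, -0.63 and -0.63. Nearest to TBX2 were KLHL13 (0.03), EBF4 (0.04) and CXCR4 (0.05), with log2 fold changes of 1.30, 1.30 and 1.29. Over 4 libraries in 2 groups this distance rests mainly on the difference between groups. The like fold changes thus follow from the search, and shared regulation was not tested.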

How the data were processed

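Total RNA from 4 libraries of IMR-32 cells was sequenced after poly(A) selection. The authors deposited raw counts per Ensembl gene, and the submitters' processing notes name cutadapt 1.9.1, HISAT2 2.0.1, HTSeq 0.6.1, DESeq2 and hg38. Strand use in counting is not given in the sources used here. They also deposited FPKM of transcript starts, ends and splicing events in each library, listed only above 0; 88.7% of 36698 starts overlapped their assigned gene in GENCODE 29. Symbols were found for 60401 of 60612 gene IDs.

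Counts were tested in edgeR 4.0.16 (R 4.3.3) with filterByExpr (minimum count 10), TMM scaling and the two-sided quasi-likelihood F test, which left 17537 genes, with Benjamini-Hochberg adjustment. The SE was the log2 fold change, unsigned, over the root of the F statistic, and 95% intervals used the degrees of freedom of the fit. Alternatives were DESeq2 1.42.0 (Wald test and size factors), library size alone, no filter, a mean of at least 1 CPM, a replicate block, each library left out, and limma 3.58.1 on log2 summed start FPKM plus 1 or 0.1 (mean of at least 1 FPKM, 10084 genes). The script was tested on simulated data.

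The members and gene lists were chosen with earlier results of these data known. 2 genes of the Schwann lineage list are not reported here. Genes named were all members, NEUROD1, up to 3 genes of each list with the largest log2 fold change at adjusted p under 0.05, list genes at or near 0, genes that overlap a member or start within 5 kb of it, and the 3 genes most like the members with the largest rise and fall. Libraries of a group differed beyond counting noise (chi-square per degree of freedom 2.53 in shControl and 1.54 in shNeuroD1). They were kept as 2 replicates, although this spread does not show that they came from separate cultures. Promoters were RefSeq sequences on GRCh38.p14; a protein table was not used here. Counting intervals cover counting error only.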

Additional observations from a re-analysis of the deposited data

How the results depend on the processing

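With 2 libraries a group, small changes rested on the scaling and on single libraries. With library size alone, 1 member fell and the median of the members was 0.10. In the limma fits to log2 FPKM with 1 and with 0.1 added, over the 6 members tested, 0 fell and 1 rose, TBX2, which was also the 1 past a log2 fold change of 1, the members' medians were 0.40 and 0.41, and 2 and 1 of 11 other adrenergic factors were called. That fit called few genes at all (5.2% and 4.6%). At an unadjusted p under 0.05, limma had 0 of the 6 members lower and 3 higher in each FPKM fit. HAND2, which fell in the main edgeR fit, was not among those 6, so the counts cannot be set side by side. LMO1 entered through its shNeuroD1 level (1.78 and 2.00 FPKM, against 0.70 and 0.72 in shControl). Over all 9 members the main edgeR fit and DESeq2 each had 3 lower and 3 higher at that p. With library size alone edgeR had 1 lower and 4 higher. Leaving out 1 library each gave 1 to 3 members lower, 2 to 3 higher, 1 to 2 past both thresholds, a median of -0.040 to 0.0425 and 13 to 14 other adrenergic factors. In these fits the lone library was assumed to vary like the other group. LMO1 had a log2 fold change of 0.98 without shNeuroD1 replicate 2.

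The sign changed only for members near 0 or in the FPKM. PHOX2A was 0.10 with library size alone, 0.0031 under the 1 CPM filter, 0.19 and 0.20 in limma, and -0.083 to 0.0425 with 1 library left out (0.0425 and 0.016 without shControl replicate 1 and shNeuroD1 replicate 2). HAND1 was 0.10 with library size alone, 0.0047 under the 1 CPM filter, and -0.0905 to 0.060 with 1 library left out (0.060 and 0.0135 without shControl replicate 2 and shNeuroD1 replicate 2). GATA2 ranged from -0.16 to 0.32 (-0.02 and -0.16 without shControl replicate 2 and shNeuroD1 replicate 1), and KLF7 was 0.21 and 0.22 in limma. The cause was not tested. Of 102 values of single members under alternatives, 76 kept direction and side of the threshold, 12 lost the call and 14 changed sign.

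The deviations of libraries with the same number correlated weakly (0.03), so the numbers were not taken as pairs. That correlation was over gene levels. It does not cover the FPKM shares of transcript starts, which at KLF7 went with the library number. With the replicate block, 3 members fell, 3 rose, 2 passed both thresholds and the median was -0.01.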
